A study of Mus musculus with 12 samples.

Results

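The genes of sterol and fatty acid synthesis were examined as a set of 30 named genes in osteoclasts, macrophages and immature dendritic cells grown from mouse bone marrow. The members were chosen by gene symbol, with earlier results of these data known. All 30 were found among the 46072 genes of the authors' deposited table. They comprise 5 enzymes from acetyl-CoA to isopentenyl diphosphate, 3 of the isoprenoid steps, 3 from squalene to lanosterol, 8 from lanosterol to cholesterol, 6 regulators and carriers of sterols, and 5 enzymes of fatty acid synthesis and desaturation.

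The study profiled polyadenylated RNA of the 3 cell types in 4 libraries each, 12 in all, with single reads of 50 bases from a stranded library kit. The 3 cell types of each experiment came from 1 mouse, and the experiment was done 4 times. All mice were of strain C57BL/6J and 6 to 8 weeks old. Macrophages and osteoclasts passed through 5 days in M-CSF at 100 ng/ml. Macrophages were then kept in M-CSF at 30 ng/ml, and osteoclasts in M-CSF at 30 ng/ml with RANKL at 50 ng/ml, the cytokine that drives osteoclast formation. Dendritic cells were grown in GM-CSF at 20 ng/ml. All 3 cultures used the same medium with dialysed serum for 8 to 10 days. Osteoclast cultures were treated with a detaching enzyme to remove cells with a single nucleus, and the labels state no sorting of any cell type.

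Cholesterol is built from acetyl-CoA through mevalonate, isoprenoid diphosphates, squalene and lanosterol. The same genes are switched on together by the transcription factors SREBP1 and SREBP2, encoded by Srebf1 and Srebf2, which the escort protein Scap carries out of the endoplasmic reticulum when sterols are scarce and which Insig1 and Insig2 hold back when sterols are plentiful. In osteoclasts the isoprenoid branch is best known as the target of nitrogen-containing bisphosphonates, which inhibit the enzyme encoded by Fdps.

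Promoters of 4 members are shown because they differ in motif content, from several matches to none. The sequences are RefSeq's for build GRCm38.p6, from 250 bases before to 50 bases after the annotated start, written 5′ to 3′ on the strand of the gene. They lie at chr13:119690101-119690400 on the plus strand for Hmgcs1, and on the minus strand at chr8:122443373-122443672 for Mvd, chr5:4104648-4104947 for Cyp51 and chr17:12960676-12960975 for Acat2. Capitals mark matches on either strand to TCACNCCAC, the core of the classical sterol regulatory element, and to CCAAT, the letters read by NF-Y, a factor that works beside SREBPs.
Hmgcs1: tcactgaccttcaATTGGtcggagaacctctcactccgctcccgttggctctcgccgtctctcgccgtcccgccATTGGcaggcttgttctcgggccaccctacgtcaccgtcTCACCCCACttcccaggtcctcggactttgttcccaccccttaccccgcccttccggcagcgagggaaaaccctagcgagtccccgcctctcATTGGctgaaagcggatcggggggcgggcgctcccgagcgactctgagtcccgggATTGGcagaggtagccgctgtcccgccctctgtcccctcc
Mvd: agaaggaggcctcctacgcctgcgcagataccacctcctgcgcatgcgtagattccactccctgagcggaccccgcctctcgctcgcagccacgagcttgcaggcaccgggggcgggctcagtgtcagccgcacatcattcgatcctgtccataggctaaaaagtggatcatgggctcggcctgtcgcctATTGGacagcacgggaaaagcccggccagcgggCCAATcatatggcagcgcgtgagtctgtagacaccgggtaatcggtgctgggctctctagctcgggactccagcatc
Cyp51: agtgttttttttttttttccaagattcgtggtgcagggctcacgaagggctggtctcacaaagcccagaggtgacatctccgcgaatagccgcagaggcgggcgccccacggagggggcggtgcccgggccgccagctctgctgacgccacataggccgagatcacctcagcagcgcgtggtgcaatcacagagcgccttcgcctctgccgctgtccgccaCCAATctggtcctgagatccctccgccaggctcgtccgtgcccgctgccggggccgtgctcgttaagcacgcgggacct
Acat2: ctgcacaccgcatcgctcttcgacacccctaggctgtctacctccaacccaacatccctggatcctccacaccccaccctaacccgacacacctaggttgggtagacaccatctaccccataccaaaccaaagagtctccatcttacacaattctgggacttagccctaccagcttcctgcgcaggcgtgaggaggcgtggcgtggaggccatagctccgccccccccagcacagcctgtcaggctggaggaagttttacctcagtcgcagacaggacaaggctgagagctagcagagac

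Of the 30 members, 24 had promoters in the RefSeq table, 32 promoters in all, while Fdps, Fdft1, Sqle, Stard4, Scd1 and Scd2 had none there. CCAAT was found in 20 of the 24 genes (83.3%), against 41.1% of 27025 genes. By promoter it was in 65.6% of the 32 against 37.4% of all 32851. TCACNCCAC was found in 1 of the 24 (Hmgcs1, 137 bases before the start), against 1.44% of all genes. CACGTG, the E-box, was found in 5 of the 24 (20.8%), against 8.09% of all genes. Hmgcs1 held 4 CCAAT matches, Mvd 2, Cyp51 1 and Acat2 0, and the values given below show that all 4 of these genes had their highest mean in dendritic cells. No match in capitals overlaps another, and a match is a description of the sequence only.

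In the authors' deposited table, 4 of 5 osteoclast markers were highest in osteoclasts, 4 of 5 macrophage markers in macrophages and 5 of 5 dendritic cell markers in dendritic cells. The exceptions were Ocstamp, a fusion protein of osteoclasts, at 1589 (osteoclasts), 14.4 (macrophages) and 2583 (dendritic cells), and Fcgr1, an Fc receptor, at 83.4, 1812 and 2944, both highest in dendritic cells, per the authors' deposited table. Ctsk, the collagen-degrading protease of osteoclasts, had a mean of 87810 (osteoclasts), 137.4 (macrophages) and 1472 (dendritic cells), Adgre1 and Csf1r were highest in macrophages, and Cd74 and H2-Ab1 in dendritic cells, per the authors' deposited table. The means summed to 24242540 (osteoclasts), 25022062 (macrophages) and 27731759 (dendritic cells) normalised reads. Markers of other cell types differed between the cultures too. In the authors' deposited table, all 6 of 6 neutrophil markers were highest in dendritic cells (summed means 10353, against 74.9 in osteoclasts and 65.1 in macrophages). The same held for 6 of 6 mast cell and basophil markers (801.5, against 11.7 and 10.2 in the authors' deposited table). Of 7 stromal and osteoblast markers, 5 were highest in dendritic cells and 1 in each of the others, with sums of 291.5 (osteoclasts), 11.2 (macrophages) and 914.5 (dendritic cells) in the authors' deposited table. Lepr gave most of the dendritic sum (889, against 5.0 in osteoclasts and 1.2 in macrophages) and Dcn most of the osteoclast sum (282.5, against 1.2 in macrophages and 1.5 in dendritic cells), while Col1a1 stayed between 0.50 and 7.65, per the authors' deposited table. Of 6 adipocyte markers 5 were highest in dendritic cells, Lep was at 0 in all 3 cell types and Fabp4, which macrophages and dendritic cells also make, accounted for 1266 of the 1279 summed in dendritic cells, per the authors' deposited table. The part of these cells in the results below was not tested.

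Sterol and fatty acid synthesis genes were highest in dendritic cells for 25 of the 30 members in the authors' deposited table. Macrophages had the highest mean for 3 (Fdft1, Insig2 and Ggps1) and osteoclasts for 2 (Msmo1 and Scap), and macrophages had the lowest mean for 18. The shares of all genes highest or lowest in each cell type were not counted. The 30 members took 0.201% of the summed means in dendritic cells, 0.102% in osteoclasts and 0.109% in macrophages, per the authors' deposited table. Without Scd2, the member with the largest difference, the shares were 0.131%, 0.100% and 0.105% in the authors' deposited table. These are bulk cultures, in which fewer cells of a type and less RNA per cell cannot be told apart.

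**Figure D1:**
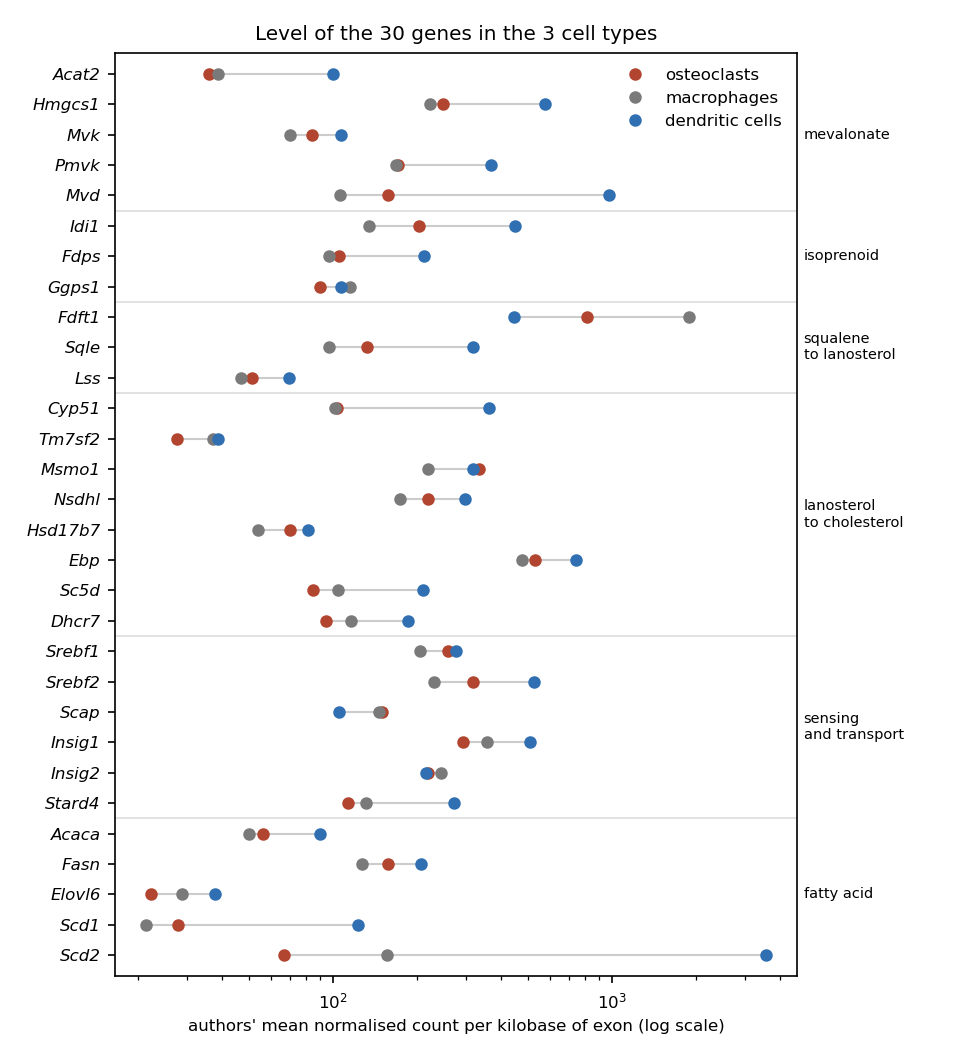
Mean level of each of the 30 genes per kilobase of exon (log scale) in osteoclasts, macrophages and dendritic cells, from the authors' deposited table, with genes in pathway order. The dendritic point lies farthest to the right for 25 genes, and Fdft1 shows the opposite order.

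A gene was called where the adjusted p of the authors' DESeq2 comparison was under 0.05. Against macrophages, dendritic cells had 22 of 30 members higher and 1 lower in the authors' deposited table, against 20.3% of all tested genes called higher and 16.4% called lower (36.7% in either direction). Osteoclasts against dendritic cells had 21 of 30 lower and 1 higher in the authors' deposited table, against 20.1% of all tested genes lower and 16.8% higher (36.9% in either direction). Lower cholesterol genes in this comparison were known when the members were chosen. The excess over the background, here and in the recovered reads below, is therefore description and no independent evidence. Osteoclasts against macrophages had 2 higher and 3 lower in the authors' deposited table, where 14.5% of all tested genes were called higher and 14.7% lower (29.3% in either direction), so the members' shares there were under the background. The median log2 fold change of the members was 0.73 for dendritic cells over macrophages, -0.73 for osteoclasts over dendritic cells and 0.12 for osteoclasts over macrophages, per the authors' deposited table. Over all tested genes these medians were 0.05, -0.05 and -0.03 in the authors' deposited table. The 3 comparisons share cell types in pairs and are therefore not independent, and 19 members were called higher in dendritic cells than in both other cell types. The share of all genes called higher in both was not counted, so this number has no background beside it. At the authors' scaling and filter the 5 members called in no comparison were Insig2, Srebf1, Scap, Ggps1 and Fasn. Other scalings or filters called all of these but Srebf1 in some comparison, as given with each gene below.

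**Figure D2:**
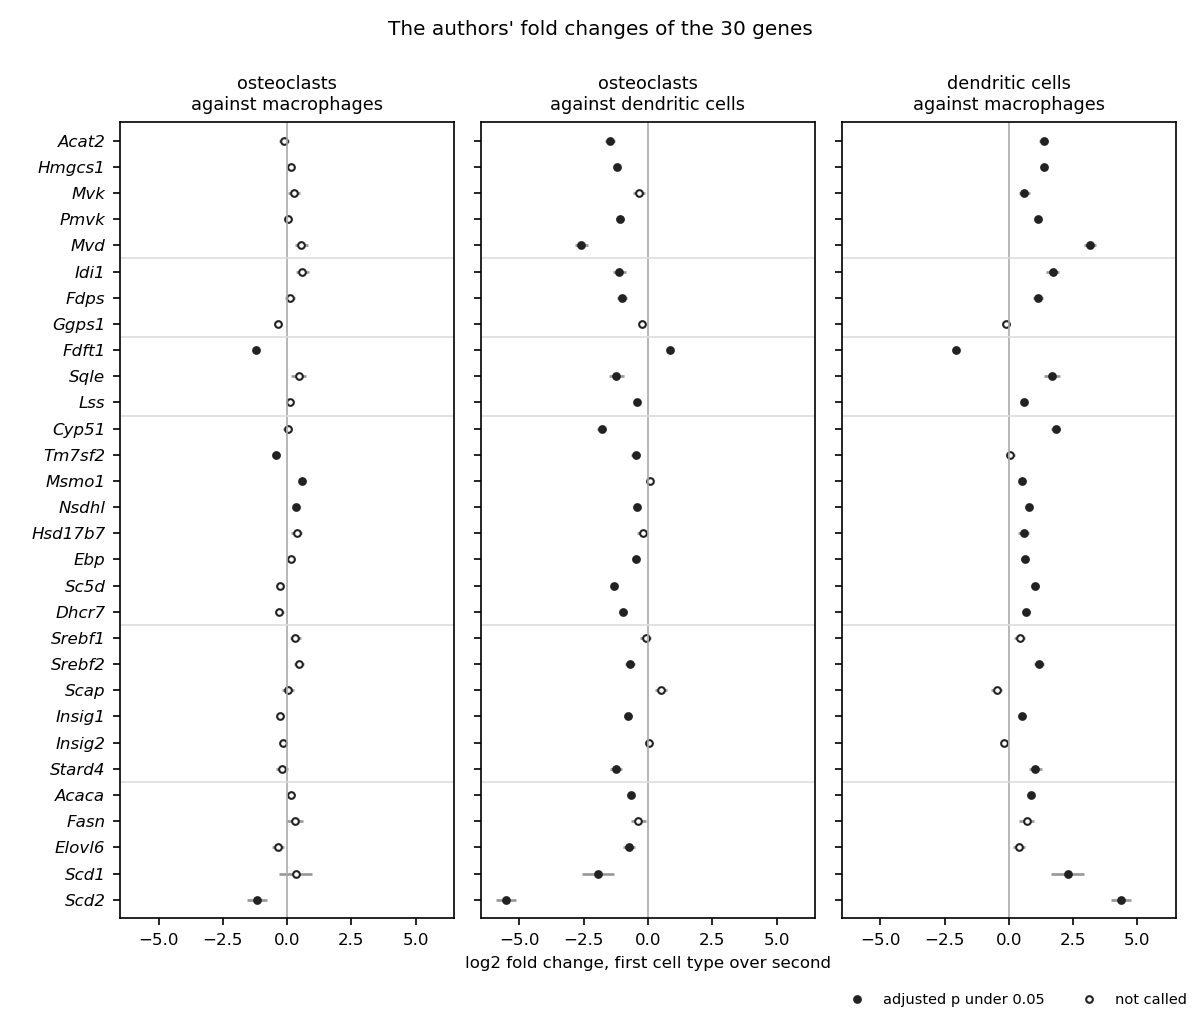
Log2 fold changes of the 30 genes in the 3 comparisons of the authors' deposited table, with bars of 1 implied standard error. Filled points passed the adjusted p of 0.05, which most members did in both comparisons with dendritic cells and 5 did between osteoclasts and macrophages.

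Scaling mattered for the calls with small fold changes. When the summed means of the cell types were made equal, every fold change of osteoclasts over dendritic cells moved by 0.19 toward osteoclasts and every one of dendritic cells over macrophages by 0.15 toward macrophages. Relative to that shift Nsdhl, Ebp and Tm7sf2 were no longer called lower in osteoclasts than in dendritic cells, and Mvk, Hsd17b7 and Insig1 were no longer called higher in dendritic cells than in macrophages.

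The entry into the pathway followed the dendritic pattern as a whole. All 5 enzymes from acetyl-CoA to isopentenyl diphosphate were higher in dendritic cells than in macrophages, 4 of 5 were called lower in osteoclasts than in dendritic cells (all but Mvk), and 0 of 5 were called by DESeq2 between osteoclasts and macrophages (1 at an unadjusted p under 0.05) in the authors' deposited table. Mvd, the decarboxylase that makes isopentenyl diphosphate, had means of 292 (osteoclasts), 197 (macrophages) and 1807 (dendritic cells), per the authors' deposited table. Its log2 fold change in the authors' deposited table was 3.15 ± 0.25 (implied standard error) for dendritic cells over macrophages (adjusted p = 6.71e-35) and -2.59 ± 0.25 for osteoclasts over dendritic cells (adjusted p = 3.92e-24). The ratio of dendritic to macrophage means was 9.16 in the authors' deposited table, the largest of any sterol enzyme among the members. Hmgcs1, the synthase that makes HMG-CoA, had means of 1138 (osteoclasts), 1021 (macrophages) and 2643 (dendritic cells), per the authors' deposited table. Dendritic cells were thus higher by 1.37 ± 0.13 than macrophages (adjusted p = 3.07e-24) in the authors' deposited table.

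Whole reads of each library could be recovered from the means for members with a mean of at most 1200 and a single solution, and the 4 libraries of a cell type are named a to d by rising size factor. These letters do not link libraries of different cell types. Pmvk, phosphomevalonate kinase, had 337, 272, 273 and 293 normalised reads in osteoclast libraries a to d, 282, 288, 345 and 236 in macrophages, and 656, 584, 512 and 775 in dendritic cells. The osteoclast and macrophage libraries overlapped, and the lowest dendritic library lay above all 8 of the others. The log2 fold change of dendritic cells over macrophages was 1.13 ± 0.16 (adjusted p = 7.55e-11) in the authors' deposited table. Acat2, which joins acetyl-CoA units at the first step, had 85.6, 85.1, 93.4 and 101 reads in osteoclasts, 103, 84.8, 134 and 73.8 in macrophages, and 249, 241, 254 and 277 in dendritic cells. The dendritic libraries again stood clear of the other 8, with a log2 fold change of -1.47 ± 0.18 for osteoclasts over dendritic cells (adjusted p = 7.02e-15) in the authors' deposited table. Acat2 shares 39.1% of its 50-base sequences with other genes, most with Acat3, whose means were 1322, 898 and 1294 in osteoclasts, macrophages and dendritic cells in the authors' deposited table, so reads of this pair may be split uncertainly. Mvk, mevalonate kinase, had the smallest difference of the 5: its dendritic libraries ran from 205 to 410 reads, its osteoclast libraries from 195 to 274 and its macrophage libraries from 159 to 242, and all 3 groups overlapped. The authors' deposited table called Mvk for dendritic cells over macrophages only (0.60 ± 0.23, adjusted p = 0.0239).

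Of the 3 isoprenoid enzymes, 2 were called in the authors' deposited table. Idi1, which isomerises isopentenyl diphosphate, had means of 714 (osteoclasts), 473 (macrophages) and 1571 (dendritic cells), per the authors' deposited table. The log2 fold change was 1.71 ± 0.25 for dendritic cells over macrophages (adjusted p = 1.89e-10) and -1.12 ± 0.25 for osteoclasts over dendritic cells (adjusted p = 5.32e-05) in the authors' deposited table. The recovered reads of Idi1 were 689, 703, 726 and 737 in osteoclasts and 543, 515, 613 and 220 in macrophages. Every osteoclast library lay above every macrophage library, while the authors' deposited table gave 0.59 ± 0.25 (adjusted p = 0.0679) for this difference. Fdps, farnesyl diphosphate synthase, had 457, 402, 441 and 470 reads in osteoclasts, 408, 416, 535 and 270 in macrophages, and 901, 791, 793 and 1090 in dendritic cells. The lowest dendritic library of Fdps exceeded the highest of the others, and its fold change was -1.01 ± 0.19 for osteoclasts over dendritic cells (adjusted p = 1.03e-06) in the authors' deposited table. Osteoclasts and macrophages did not separate for this bisphosphonate target (0.12 ± 0.19, adjusted p = 0.715, in the authors' deposited table). Ggps1, which makes the geranylgeranyl diphosphate used to anchor small GTPases, had means of 426, 546 and 503 in osteoclasts, macrophages and dendritic cells and was called in 0 of the 3 comparisons of the authors' deposited table. Upper-quartile scaling (-0.41, adjusted p = 0.025) and a filter at 1 CPM (adjusted p = 0.0471) called it lower in osteoclasts than in macrophages. A limma fit to the recovered reads did not (adjusted p = 0.0624), except without macrophage library c (-0.43, adjusted p = 0.0334). Against dendritic cells limma called osteoclasts lower for Ggps1 only without dendritic library d (-0.35, adjusted p = 0.0229).

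Between squalene and lanosterol, Sqle and Lss were higher in dendritic cells and Fdft1 had the opposite order. Sqle, the squalene epoxidase, had means of 738, 538 and 1767 in osteoclasts, macrophages and dendritic cells in the authors' deposited table, a log2 fold change of 1.68 ± 0.30 for dendritic cells over macrophages (adjusted p = 1.79e-07). Lss, which closes the rings to form lanosterol, differed less but with little spread: 533, 604, 545 and 528 reads in osteoclasts, 519, 495, 545 and 461 in macrophages and 723, 775, 735 and 764 in dendritic cells. All 4 dendritic libraries of Lss were above the other 8, with 0.57 ± 0.09 for dendritic cells over macrophages (adjusted p = 3.22e-09) in the authors' deposited table.

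Fdft1, squalene synthase, had means of 3442 (osteoclasts), 7951 (macrophages) and 1883 (dendritic cells), per the authors' deposited table. It was the only member called higher in osteoclasts than in dendritic cells (0.87 ± 0.12, adjusted p = 8.37e-12) and the only one called lower in dendritic cells than in macrophages (-2.07 ± 0.12, adjusted p = 3.26e-64) in the authors' deposited table. It was also lower in osteoclasts than in macrophages (-1.20 ± 0.12, adjusted p = 1.18e-21) in the authors' deposited table. Fdft1 lies at chr14:63145150-63179578 on the minus strand of GRCm38, and in GENCODE M21 its exons share 774 bases, 18.3% of its exon length, with Ctsb on the opposite strand. Ctsb, the lysosomal protease cathepsin B, had means of 207700 (osteoclasts), 409598 (macrophages) and 132577 (dendritic cells), per the authors' deposited table. The fold changes of Ctsb had the same signs as those of Fdft1: -0.98 ± 0.09 for osteoclasts over macrophages, 0.65 ± 0.09 for osteoclasts over dendritic cells and -1.62 ± 0.09 for dendritic cells over macrophages, per the authors' deposited table. The sources used here do not give whether the counting used the strand of the reads, and the part of Ctsb reads in the Fdft1 values was not tested. Without Fdft1, DESeq2 called 0 of 29 members higher in osteoclasts than in dendritic cells and 0 of 29 lower in dendritic cells than in macrophages, per the authors' deposited table. At an unadjusted p under 0.05 each count was 1 (Scap).

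**Figure D3:**
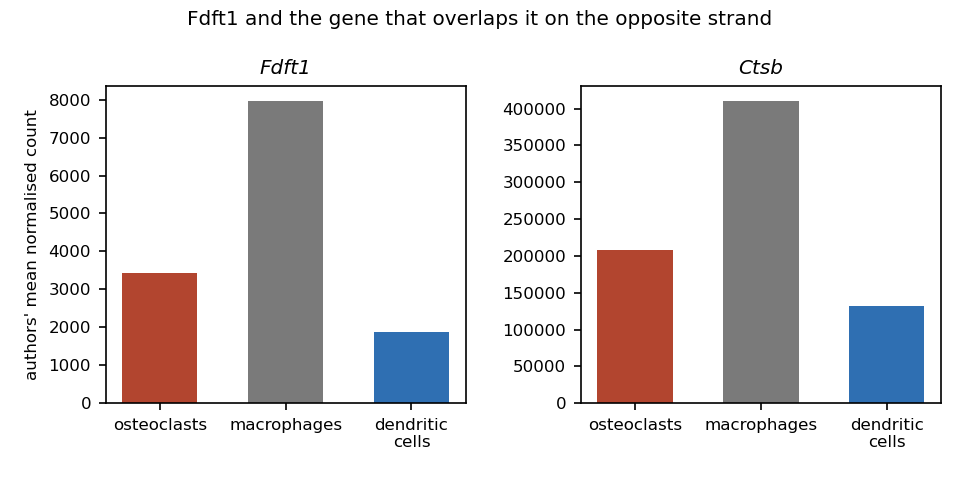
Mean normalised counts of Fdft1 and of Ctsb, which overlaps it on the opposite strand, in the 3 cell types of the authors' deposited table (bars start at 0). Both genes are highest in macrophages and lowest in dendritic cells, and each gene has its own axis.

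From lanosterol to cholesterol, 7 of 8 enzymes were higher in dendritic cells than in macrophages and 6 of 8 lower in osteoclasts than in dendritic cells, per the authors' deposited table. Cyp51, the demethylase that acts on lanosterol, had means of 457 (osteoclasts), 450 (macrophages) and 1601 (dendritic cells), per the authors' deposited table, with 1.82 ± 0.18 for dendritic cells over macrophages (adjusted p = 1.16e-22). Its macrophage libraries had 458, 477, 560 and 304 reads and its osteoclast libraries 424, 385, 533 and 486, which overlapped. Sc5d, a desaturase close to the end of the route, had 363, 411, 469 and 407 reads in osteoclasts, 462, 602, 496 and 463 in macrophages, and 1000, 1140, 1110 and 839 in dendritic cells. Dendritic libraries of Sc5d were all above the rest, and the fold change of osteoclasts over dendritic cells was -1.30 ± 0.14 (adjusted p = 1.46e-18) in the authors' deposited table. Dhcr7, the reductase of the last step of the Kandutsch-Russell route, had 525, 545, 568 and 552 reads in osteoclasts, 717, 644, 765 and 582 in macrophages and 904, 1210, 834 and 1380 in dendritic cells. The 3 groups of Dhcr7 did not overlap, with osteoclasts lowest. The authors' deposited table called both differences with dendritic cells, -0.98 ± 0.17 for osteoclasts (adjusted p = 5.88e-08) and 0.67 ± 0.17 over macrophages (adjusted p = 0.000307), but gave -0.30 ± 0.17 (adjusted p = 0.176) for osteoclasts over macrophages.

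The share of members called higher in osteoclasts than in macrophages was under the 14.5% of all tested genes called higher by DESeq2. With totals made equal, Idi1 (adjusted p = 0.0452) and Srebf2 (adjusted p = 0.0316) joined the members called higher. At the authors' scaling and filter only Nsdhl and Msmo1 were called higher, and both belong to the complex that strips methyl groups from sterols. Nsdhl, its dehydrogenase, had 649, 595, 659 and 605 reads in osteoclasts, 543, 492, 526 and 420 in macrophages, and 761, 920, 906 and 820 in dendritic cells. The 3 groups did not overlap, with osteoclasts between the other two: 0.34 ± 0.11 over macrophages (adjusted p = 0.0127) and -0.44 ± 0.11 against dendritic cells (adjusted p = 0.000376) in the authors' deposited table. On the recovered reads the difference from macrophages was called by limma (adjusted p = 0.037), but not when any 1 library other than macrophage library a was left out (adjusted p from 0.0505 to 0.101). Msmo1, the oxidase of the complex, had means of 2046 (osteoclasts), 1348 (macrophages) and 1945 (dendritic cells), per the authors' deposited table. It was higher in osteoclasts (0.60 ± 0.13, adjusted p = 2.13e-05) and in dendritic cells (0.53 ± 0.13, adjusted p = 0.000141) than in macrophages, per the authors' deposited table, and osteoclasts and dendritic cells gave 0.07 ± 0.13 (adjusted p = 0.712). Hsd17b7, the reductase of the same complex, had 310 to 393 reads in osteoclasts, 166 to 335 in macrophages and 365 to 512 in dendritic cells. It was called for dendritic cells over macrophages only (0.58 ± 0.21, adjusted p = 0.0177, in the authors' deposited table). For osteoclasts over macrophages Hsd17b7 gave 0.38 ± 0.21 (adjusted p = 0.178) in the authors' deposited table. Ebp, a sterol isomerase, had means of 1220, 1098 and 1712 in osteoclasts, macrophages and dendritic cells and was called in both comparisons with dendritic cells in the authors' deposited table. Tm7sf2, a sterol reductase, was the exception: 130, 125, 91.4 and 140 reads in osteoclasts, 141, 158, 201 and 159 in macrophages, and 166, 171, 157 and 187 in dendritic cells. Osteoclasts lay below both other cell types in every library of Tm7sf2, with -0.43 ± 0.17 against macrophages (adjusted p = 0.0407) and -0.48 ± 0.17 against dendritic cells (adjusted p = 0.0153) in the authors' deposited table. The gap to macrophages was narrow, with the highest osteoclast library at 140.06 reads and the lowest macrophage library at 140.54. The call against macrophages ended with no filter on low counts (adjusted p = 0.0592) and with the totals made equal (adjusted p = 0.0724). On the recovered reads limma did not call the difference from macrophages (adjusted p = 0.107). It called the difference from dendritic cells (adjusted p = 0.0345), but lost that call without osteoclast library c, among others (adjusted p up to 0.107). Tm7sf2 also shares 9.87% of its 50-base sequences with other genes, chiefly Vps51, which overlaps it on the same strand.

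Of the 6 regulators and carriers, 3 (Srebf2, Insig1 and Stard4) were called in both comparisons with dendritic cells in the authors' deposited table. Srebf2, whose product drives sterol genes, had means of 2284 (osteoclasts), 1649 (macrophages) and 3770 (dendritic cells), per the authors' deposited table. It was called for dendritic cells over macrophages (1.18 ± 0.19, adjusted p = 9.98e-09) and for osteoclasts over dendritic cells (-0.72 ± 0.19, adjusted p = 0.000968) in the authors' deposited table, and reached 0.47 ± 0.19 (adjusted p = 0.0549) for osteoclasts over macrophages. Srebf1, whose products favour fatty acid genes, had means of 1454, 1159 and 1549 in osteoclasts, macrophages and dendritic cells and was called in 0 comparisons of the authors' deposited table. Scap had means of 1115 (osteoclasts), 1088 (macrophages) and 783 (dendritic cells), and its fold change of 0.50 ± 0.22 for osteoclasts over dendritic cells did not pass (adjusted p = 0.0582) in the authors' deposited table. With the totals made equal Scap was called higher in osteoclasts than in dendritic cells (0.70, adjusted p = 0.0050, from the authors' deposited table) and lower in dendritic cells than in macrophages (-0.62, adjusted p = 0.0153).

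The difference between Insig1 and Insig2, which share the task of holding SREBPs back, was not tested. Insig1, itself an SREBP target, had means of 904, 1105 and 1565 in osteoclasts, macrophages and dendritic cells and was called in both comparisons with dendritic cells (-0.79 ± 0.16 with adjusted p = 7.3e-06, and 0.50 ± 0.16 with adjusted p = 0.00698) in the authors' deposited table. Insig2 had 731, 837, 759 and 723 reads in osteoclasts, 870, 793, 833 and 885 in macrophages, and 742, 932, 641 and 670 in dendritic cells, and the 3 groups overlapped. With the totals made equal Insig2 was called lower in dendritic cells than in macrophages (-0.33, adjusted p = 0.0309, from the authors' deposited table). Stard4, a soluble sterol carrier, had 717, 556, 602 and 653 reads in osteoclasts and 862, 587, 1060 and 422 in macrophages. Its dendritic mean of 1512 gave -1.24 ± 0.24 for osteoclasts over dendritic cells (adjusted p = 1.03e-06) in the authors' deposited table.

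Among the fatty acid enzymes the desaturases differed most. Scd2, a stearoyl-CoA desaturase that makes monounsaturated fatty acids, had means of 366 (osteoclasts), 855 (macrophages) and 19412 (dendritic cells), per the authors' deposited table. The dendritic mean was 53.1 times the osteoclast mean and 22.7 times the macrophage mean in the authors' deposited table. The corresponding log2 fold changes were -5.53 ± 0.40 for osteoclasts over dendritic cells (adjusted p = 2e-42) and 4.35 ± 0.40 for dendritic cells over macrophages (adjusted p = 1.16e-26) in the authors' deposited table. Per kilobase of exon, Scd2 ranked 1 of the 30 members in dendritic cells (at 3553), 11 in macrophages (at 157) and 24 in osteoclasts (at 66.9) in the authors' deposited table. The recovered reads of Scd2 were 373, 562, 306 and 222 in osteoclasts and 891, 1120, 1180 and 220 in macrophages. Macrophage library d lay at the level of the lowest osteoclast library, and the other 3 macrophage libraries were above all osteoclast libraries. The difference between osteoclasts and macrophages was called in the authors' deposited table (-1.18 ± 0.40, adjusted p = 0.0134). On the recovered reads limma gave -1.05 ± 0.50 (adjusted p = 0.152), and without macrophage library d it gave -1.61 (adjusted p = 0.0031).

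Scd1, the paralogue of Scd2, stood at 123 per kilobase of exon in dendritic cells, per the authors' deposited table. It had 73.6, 146, 193 and 133 reads in osteoclasts, 37.3, 311, 39.9 and 31.6 in macrophages, and 756, 626, 535 and 500 in dendritic cells. All dendritic libraries were above the others, and macrophage library b, at 311, stood apart from the other 3 macrophage libraries. The authors' deposited table gave -1.95 ± 0.64 for osteoclasts over dendritic cells (adjusted p = 0.00777), 2.28 ± 0.64 for dendritic cells over macrophages (adjusted p = 0.00136) and 0.34 ± 0.64 for osteoclasts over macrophages (adjusted p = 0.759). On the recovered reads limma gave 1.04 ± 0.66 for osteoclasts over macrophages (adjusted p = 0.269), and 1.81 without macrophage library b (adjusted p = 0.0037). Scd1 and Scd2 both lie on chromosome 19 and share 4.56% and 3.97% of their 50-base sequences with other genes, mostly with each other.

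Acaca, acetyl-CoA carboxylase, had means of 958, 852 and 1534 in osteoclasts, macrophages and dendritic cells and was called in both comparisons with dendritic cells (-0.68 ± 0.15 with adjusted p = 1.88e-05, and 0.84 ± 0.15 with adjusted p = 4.83e-08) in the authors' deposited table. Fasn, the fatty acid synthase itself, had means of 1730, 1395 and 2266 in the same order and was not called, reaching 0.69 ± 0.30 for dendritic cells over macrophages (adjusted p = 0.0541) in the authors' deposited table. With a filter at 1 CPM this difference of Fasn was called (adjusted p = 0.0398). Elovl6, which lengthens palmitate, had 159, 124, 137 and 155 reads in osteoclasts, 238, 185, 209 and 106 in macrophages, and 242, 181, 255 and 295 in dendritic cells. Osteoclasts lay below all dendritic libraries of Elovl6 (-0.75 ± 0.24, adjusted p = 0.00585, in the authors' deposited table), while macrophages overlapped both. Acaca shares 30.4% of its 50-base sequences with other genes, most with Gm5182, so its reads may be split uncertainly.

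The spread across libraries could be taken only over the members recovered in each cell type. Only 14 members were recovered in all 3, so the medians below cover different members and do not rank the cell types. The coefficient of variation over the 4 libraries had a median of 10.6% over the 22 members recovered in osteoclasts, 19.4% over the 24 in macrophages and 16% over the 15 in dendritic cells. Over all recovered genes with a mean of at least 50 the medians were 12.9%, 16.5% and 17%. Macrophage library d had the lowest value for 18 of 24 members, where it was lowest for 34.3% of 6348 genes. Library c had the highest value for 15 of the 24, where it was highest for 23.6% of genes. In library d, Sqle had 185 reads against 712, 552 and 703 in libraries a to c, so that the macrophage mean of Sqle was 538 with it and 655 ± 90.1 (SD, n = 3) without it. For Idi1 the macrophage mean moved from 473 to 557 without library d, for Hsd17b7 from 276 to 313 and for Stard4 from 733 to 836. Osteoclast libraries of Sqle had 741, 709, 728 and 773 reads, and 1 macrophage library lay inside their range.

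**Figure D4:**
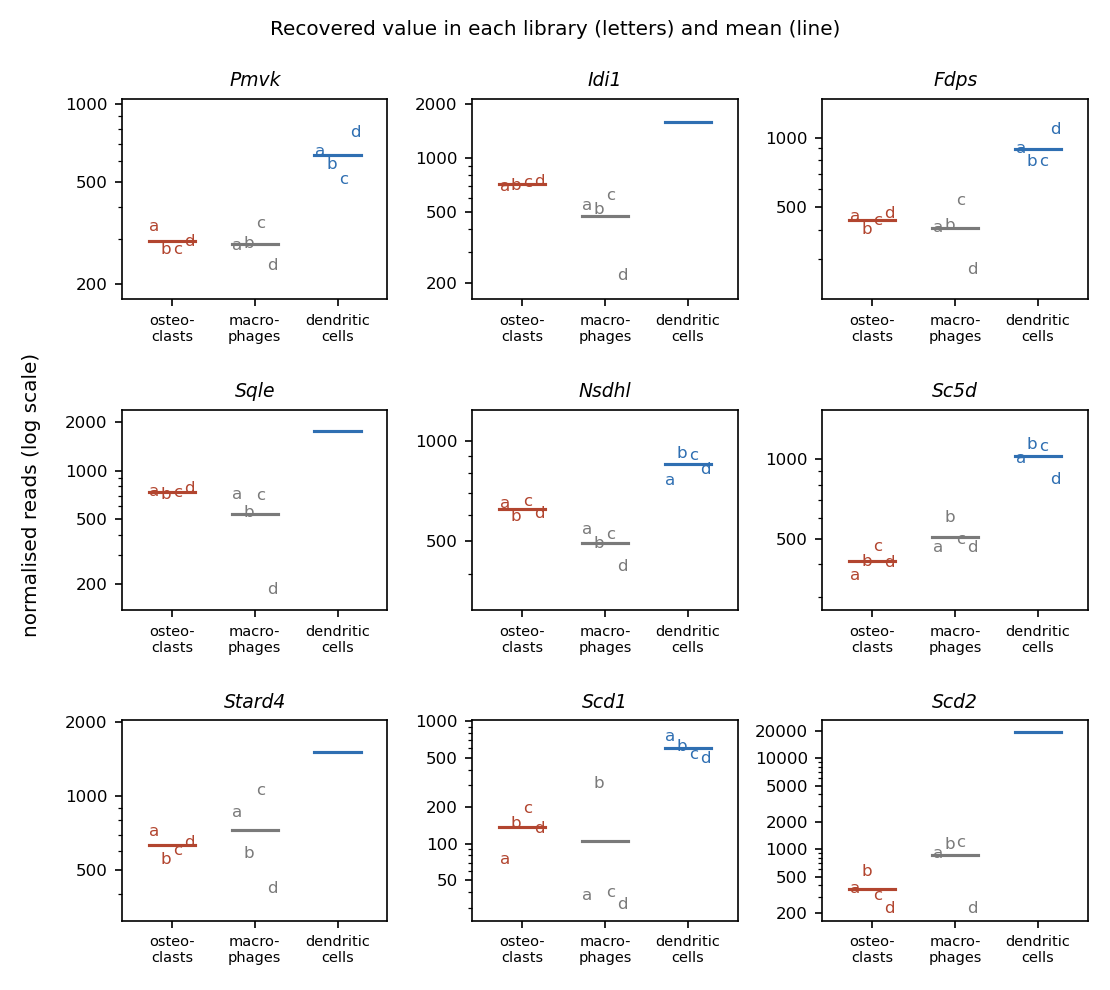
Recovered normalised reads (log scale) of 9 members in libraries a to d of each cell type, with a line at the authors' mean; dendritic libraries of Idi1, Sqle, Stard4 and Scd2 were not recovered and have the line only. Macrophage library d lies under the other macrophage libraries for Idi1, Sqle, Fdps, Stard4 and Scd2, and library b stands alone for Scd1.

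Members with recovered reads in both cell types allowed a count of groups that do not overlap, though 15 members had a mean above the limit of 1200 in at least 1 cell type and could not enter every count. In this paragraph, all genes are those recovered in both cell types with a mean of at least 5. Dendritic libraries were all above all macrophage libraries for 9 of 14 members, against 21.9% of all genes, and all below for 0 of 14, against 15.9%. Osteoclast libraries were all below all dendritic libraries for 10 of 14 members, against 25% of all genes, and all above for 0, against 18.8%. Between osteoclasts and macrophages, 2 of 21 members (Idi1 and Nsdhl) were higher without overlap, against 16% of all genes, and 2 (Tm7sf2 and Dhcr7) lower, against 14.6%. A limma fit to log2 of the recovered reads called 8 of 14 members higher in dendritic cells than in macrophages (22.1% of all genes), 10 of 14 lower in osteoclasts than in dendritic cells (26.2%), and 1 of 21 higher (Nsdhl, 0.35 ± 0.11, adjusted p = 0.037, lost without any 1 of 7 libraries; 13.8%) and 0 of 21 lower (12.9%) in osteoclasts than in macrophages. At an unadjusted p under 0.05 limma gave 3 and 4 for the last comparison. Leaving out macrophage library d gave Idi1 as the 1 higher member there, and Dhcr7, Scd2 and Elovl6 as lower.

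Other genes of the pathways were taken from named lists. Of 6 further sterol enzymes, 2 were higher and 2 lower in dendritic cells than in macrophages, and 3 were higher and 2 lower in osteoclasts than in dendritic cells, per the authors' deposited table. The background was 20.3% of all tested genes higher and 16.4% lower in dendritic cells than in macrophages. For osteoclasts against dendritic cells it was 16.8% higher and 20.1% lower. Por, the electron donor of Cyp51 and Sqle as well as of many other enzymes, ran against the members, with means of 4970 (osteoclasts), 7990 (macrophages) and 1920 (dendritic cells) and -2.04 ± 0.18 for dendritic cells over macrophages (adjusted p = 5.3e-29) in the authors' deposited table.

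Fatty acid genes outside the 30 were mixed. Of 21 such genes, 20 were tested, and 6 were higher and 6 lower in dendritic cells than in macrophages, with 4 higher and 9 lower in osteoclasts than in dendritic cells, per the authors' deposited table. The background was 20.3% of all tested genes higher and 16.4% lower in the first comparison, and 16.8% higher and 20.1% lower in the second. Acly, which supplies acetyl-CoA from citrate, had means of 5411 (osteoclasts), 4567 (macrophages) and 13017 (dendritic cells), per the authors' deposited table, and Acss2, which supplies it from acetate, 118, 121 and 594. Fads2, a desaturase of polyunsaturated fatty acids, had means of 3.0 (osteoclasts), 44.4 (macrophages) and 175 (dendritic cells), and -5.45 ± 0.52 for osteoclasts over dendritic cells (adjusted p = 3.57e-24) in the authors' deposited table. Me1, malic enzyme, a source of NADPH, had the reverse order, 1028 (osteoclasts), 726 (macrophages) and 132 (dendritic cells), per the authors' deposited table (2.93 ± 0.24 for osteoclasts over dendritic cells, adjusted p = 6.62e-34).

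Of 19 genes of sterol sensing, uptake and storage, 2 were higher and 8 lower in dendritic cells than in macrophages, and 3 were higher and 4 lower in osteoclasts than in macrophages, per the authors' deposited table. Osteoclasts against dendritic cells had 6 higher and 4 lower. In the same order of comparisons, the background over all tested genes was 20.3% higher and 16.4% lower, 14.5% and 14.7%, and 16.8% and 20.1%. Mylip, a ubiquitin ligase of lipoprotein uptake, had means of 676 (osteoclasts), 2375 (macrophages) and 507 (dendritic cells) and was lower in osteoclasts than in macrophages (-1.79 ± 0.23, adjusted p = 5.53e-13) in the authors' deposited table. Nr1h3, the liver X receptor alpha, had means of 2219 (osteoclasts), 762 (macrophages) and 307 (dendritic cells), per the authors' deposited table, and its target Abca1, a cholesterol exporter, was lower in osteoclasts than in macrophages (-1.25 ± 0.34, adjusted p = 0.00145).

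The enzymes that use isoprenoids form the last list. Of 13 genes of protein prenylation, ubiquinone, dolichol and transfer RNA modification, 0 were called higher by DESeq2 and 2 lower in dendritic cells than in macrophages, and 3 were higher and 0 lower in osteoclasts than in dendritic cells, per the authors' deposited table. For these and the proliferation genes below, the background was 20.3% of all tested genes higher and 16.4% lower in dendritic cells than in macrophages. For osteoclasts against dendritic cells it was 16.8% higher and 20.1% lower. Coq2, of ubiquinone synthesis, had means of 589 (osteoclasts), 538 (macrophages) and 281 (dendritic cells), with 1.06 ± 0.13 for osteoclasts over dendritic cells (adjusted p = 3.38e-16) in the authors' deposited table. At an unadjusted p under 0.05 the counts of 0 were 0 and 2. Of 16 proliferation genes, DESeq2 called 0 in either direction for dendritic cells against macrophages (0 at an unadjusted p under 0.05), and 2 higher (Bub1 and Mcm5) and 0 lower for osteoclasts against dendritic cells (4 and 0 unadjusted), per the authors' deposited table.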

How the data were processed

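Polyadenylated RNA of 3 cell types was sequenced from 12 libraries. Reads were processed with bcl2fastq, Bowtie2, TopHat2, Cufflinks 2.1.1 and DESeq2 2.13 on build GRCm38, per the submitters' processing notes; the sources used here do not give the strand setting of the counting. Per the file headers, the authors deposited 1 table of 46072 genes with, for each pair of cell types, 2 means (a normalised signal, in reads), the log2 fold change between them, its p-value and the p-value after adjustment. The values show each mean to be the average over 4 libraries of whole reads divided by the size factor of the library. The table holds no counts by library, so the authors' own DESeq2 test is the main result and a gene was called at their adjusted p under 0.05. Where printed, the implied standard error is the log2 fold change over the normal quantile of its two-sided p-value.

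Whole reads of each library were recovered by enumerating the sums that equal the mean to its 15 printed digits, for means up to 1200, and kept where 1 solution existed (97.3% of genes tried in osteoclasts, 97.4% in macrophages, 99.9% in dendritic cells). Size factors ran from 0.975 to 1.04. On simulated reads 281 of 293, 274 of 294 and 280 of 282 genes were recovered, 0 wrongly. Recovered reads were tested with limma 3.58.1 on log2(value + 1), for genes with a mean of at least 5, an analysis added after the data were seen. In simulated data with 200 genes changed 3-fold, it recovered 92.5% for osteoclasts against macrophages (9060 genes), 93% for osteoclasts against dendritic cells (9674) and 88% for dendritic cells against macrophages (9766). The simulation gave all genes the same dispersion, and most members differed by less than 3-fold. These rates therefore do not measure how often the smaller differences of the members would be found. P-values measure the spread between cultures of 4 mice. The limma fits did not use the pairing of cell types by mouse, and the sources used here do not state whether the authors' test did.

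Symbols were matched by gene identifier for 45138 genes. Levels of different members are compared only per kilobase of exon, from GENCODE M21. Shared sequence was counted as 50-base stretches found in another gene's transcripts. The members, gene lists, markers and rules were chosen with earlier results of these data known, and the lower cholesterol genes of osteoclasts against dendritic cells were among those results. All members may be named; from each list the text names those called with the smallest p per direction and comparison. Some genes that enter the counts of these lists are not reported here by name. The promoters shown and Ctsb were chosen after their values were seen. Alternatives were other scalings, filters, thresholds, enzymes only, ratios of the means, and leaving out each recovered library.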

Additional observations from a re-analysis of the deposited data

Results flagged for a closer look

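In 61 sets of 4 recovered libraries, 1 for each member and cell type with recovered reads, 3 held a library far from the other 3 by Dixon's criterion; chance alone marks about 1 in 20 such sets. Scd1 had 310.8 normalised reads in macrophage library b, where the other macrophage libraries had 31.6 to 39.9. Insig1 had 1120 normalised reads in osteoclast library b, where the others had 798 to 851. Ggps1 had 387.7 normalised reads in dendritic library d, where the others had 527 to 554.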

How the results depend on the processing

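The median fold change of the members kept its sign in all 3 comparisons under the 4 alternatives run for it: 2 other scalings, ratios of the means, and enzymes only. The counts were also taken without Fdft1 and under 2 other filters, an adjusted p under 0.01 and a 2-fold minimum. With a 2-fold minimum, members higher in dendritic cells than in macrophages went from 22 to 13 and members lower in osteoclasts than in dendritic cells from 21 to 12, and members higher in osteoclasts went from 1 to 0 against dendritic cells and from 2 to 0 against macrophages. With totals made equal the median of osteoclasts over dendritic cells was -0.54, members higher in osteoclasts were 2 against dendritic cells and 4 against macrophages (Idi1 and Srebf2 added), and members lower in dendritic cells than in macrophages were 3. Upper-quartile scaling gave 2 for members higher in osteoclasts than in dendritic cells and 2 for members lower in dendritic cells than in macrophages, and a filter at 1 CPM gave 2 for the former. Without Fdft1, at the authors' own scaling and filter, these counts were 0 and 0. Under upper-quartile scaling Scap was called as well, at 0.522 for osteoclasts over dendritic cells and -0.543 for dendritic cells over macrophages. With the filter at 1 CPM it was also called for osteoclasts over dendritic cells. An adjusted p under 0.01 left 1 higher and 1 lower between osteoclasts and macrophages. The cause of these changes was not tested.

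Signs turned for members that were not called. For osteoclasts over macrophages, upper-quartile scaling gave -0.0268 for Pmvk, -0.0338 for Cyp51 and -0.0219 for Scap. Totals made equal gave 0.10 for Srebf1 for osteoclasts over dendritic cells and -0.10 for Tm7sf2 for dendritic cells over macrophages, where upper-quartile scaling gave -0.0226.

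Leaving out 1 recovered library at a time, with limma, gave 0 to 1 members higher and 0 to 3 lower for osteoclasts against macrophages, 9 to 10 lower for osteoclasts against dendritic cells and 8 to 9 higher for dendritic cells against macrophages. Nsdhl lost its call between osteoclasts and macrophages without any 1 of 7 libraries (adjusted p up to 0.101), the exception being macrophage library a. Signs turned for Pmvk (-0.0537 to 0.128), Fdps (-0.0247 to 0.302), Cyp51 (-0.131 to 0.163), Acat2 (-0.21 to 0.0754) and Stard4 (-0.368 to 0.0743) for osteoclasts over macrophages, for Insig2 (-0.0231 to 0.157) for osteoclasts over dendritic cells and for Tm7sf2 (-0.0117 to 0.158) for dendritic cells over macrophages. No paired analysis was possible because the table holds means with no column per library, and recovered libraries carry no replicate number, although the labels pair replicates by mouse. Leaving out replicates was likewise not run on the authors' own test. Members with means above the recovery limit have no values by library, so their spread rests on the authors' test alone.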
